A study of Drosophila melanogaster with 9 samples.

Results

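S2R+ cells are an embryonic line of Drosophila melanogaster with the properties of haemocytes, the blood cells of the fly. This account covers the control cells of a study of the Hox protein Ultrabithorax (Ubx), which made a nuclear green fluorescent protein (GFP) through the Gal4-UAS system with an actin promoter. The 3 GFP libraries were taken by their titles from 9 in the series, and all 17559 gene rows of each were kept. The other 6 libraries, from cells making wild-type Ubx or its N51A mutant, were not used. All 3 libraries therefore share the driver and the nuclear GFP, so the baseline is not that of the untouched line. The labels do not give the share of cells that make the protein. The names of the deposited tables carry the word unsorted, and the table of the third library carries the number 4. The labels explain neither. RNA was selected by its poly(A) tail, made into directional libraries and sequenced as 75 bp single-end reads. Per the labels the submitters prepared 4 replicates of each kind of cell and chose 3 by principal components, a choice that can narrow the spread given below. The labels call the replicates independent without saying what separates them. They describe the cells as embryonic.

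Fly blood has 3 mature cell types. Plasmatocytes engulf microbes and dead cells and lay down matrix, crystal cells carry prophenoloxidase for melanin, and lamellocytes wrap parasites too large to engulf. The GATA factor encoded by srp is needed for all of them. Plasmatocyte fate also needs the glial cells missing factors gcm and gcm2, and crystal cell fate needs the Runx factor lz.

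The libraries held from 39984588 to 51644437 reads assigned to genes. Levels are given as read counts scaled to the same total of reads in genes (CPM) where libraries are compared, and as the same kind of value per length (TPM) where genes are compared, with the merged exon length of each gene as its length. A gene counts as expressed at 1 CPM or more in each of the 3 libraries, low where it has reads but misses that level, and not detected at 0 reads over all 3. A count of 3 reads in the pooled 136176334 reads corresponds to 0.0220 CPM, which is the level that a count of 0 allows, for counting error only. A further 306 identifiers without a symbol in the annotation held 4.83% to 4.98% of the reads. They have no length here and so no TPM.

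Of the 17559 genes, 7389 were expressed, 5831 were low and 4339 were not detected. Among 13685 protein-coding genes 7028 were expressed, which is 51.4%, and over all genes the share was 42.1%. These 2 shares are the background for the counts of list members below. Expressed protein-coding genes had a median of 44.0 TPM, with 5.01 TPM at the 10th and 213 TPM at the 90th percentile. The median of low protein-coding genes was 0.0719 TPM. Expressed protein-coding genes had a median exon length of 2156 bases, low ones 1584.5 bases and those without a read 989 bases. The rule for the classes is not scaled by length, so at the same TPM a longer gene passes it more readily.

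**Figure D1:**
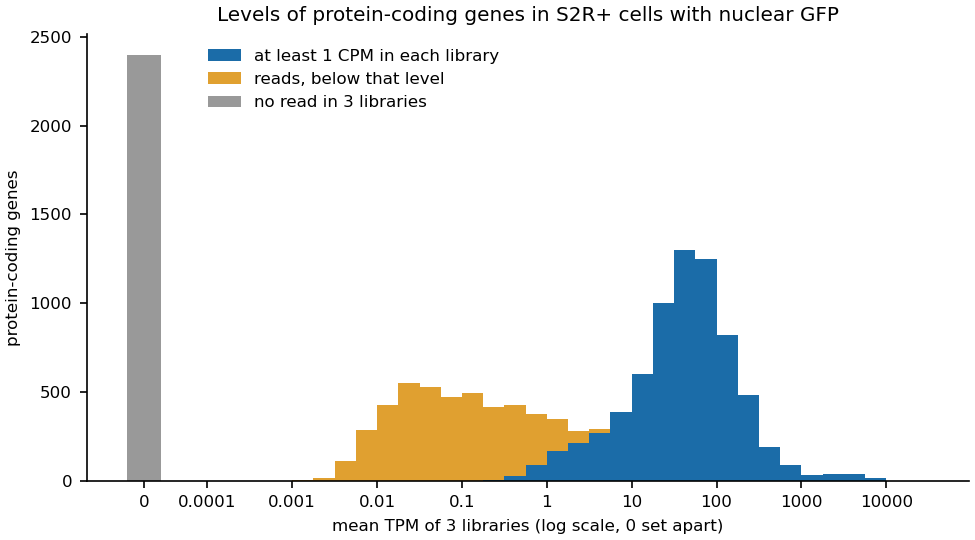
Number of protein-coding genes by mean TPM of the 3 libraries on a log scale, coloured by level class, with genes at 0 in a bar of their own. The 7028 expressed genes form a peak around their median of 44.0 TPM, the 4260 low genes a broad shoulder around 0.0719 TPM, and 2397 genes stand at 0.

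A gene without a read need not be silent. In the annotation 586 genes have no exon base that is not shared with another gene on either strand, and 565 of them had no read. Among them are genes for general machinery that dividing cells use, such as Polr2D, a subunit of RNA polymerase II, Orc3 of the origin recognition complex, and mRpL53 of the mitochondrial ribosome. The deposited counts set 3.11% to 3.23% of reads apart as ambiguous between genes, and 3.26% to 3.77% as not uniquely aligned. Of 126 genes whose exons are entirely their own on their strand but entirely overlapped when both strands are counted, 120 had no read. That share of 95.2% compares with 24.7% of all genes without a read. Without such 586 genes, 3774 genes remained not detected.

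The 3 markers named for this line were all expressed, at very different levels. Act42A (FBgn0000043), a cytoplasmic actin gene on chromosome 2R, had 6630, 6388 and 6155 TPM. The level is among the 10 highest of the genes with a TPM and spans a narrow range. The gene srp (FBgn0003507), on chromosome 3R, had 80.9, 80.4 and 71.7 TPM, with a mean of 77.7 ± 5.14 TPM (SD, n = 3). Hml (FBgn0029167), which encodes the clotting protein hemolectin and is used to mark plasmatocytes, had only 1.06, 1.16 and 1.47 TPM. On the CPM scale Hml had 6.31, 6.88 and 8.69, so it passed the level in each library while lying far below the median expressed gene per length.

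Of 18 matched plasmatocyte genes, 14 were expressed. Pvr, the receptor of the fly PDGF/VEGF-like factors, led them with 243, 249 and 245 TPM. The scavenger receptor gene crq, which serves the uptake of dead cells, had 172, 179 and 181 TPM. Pxn, which encodes the matrix enzyme peroxidasin, had 161, 163 and 134 TPM, with the third library lowest. The partner of srp encoded by ush had 94.7, 97.8 and 95.9 TPM. These 4 genes and srp sit above the median expressed gene.

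Other surface markers of the same list were lower. NimC1, the antigen P1, had 0, 1 and 1 reads. The receptor gene eater had 69, 89 and 99 reads, a mean of 1.14 ± 0.207 TPM (SD, n = 3), and the haemocyte antigen He had 31, 23 and 48 reads and missed the level. Sr-CI, a class C scavenger receptor, had 3.44, 4.35 and 4.01 TPM. Each of gcm and gcm2 had 3 reads in all. Between these and the higher genes lay the matrix genes Col4a1, vkg, Ppn and Tig with means of 29.4, 13.3, 9.66 and 9.08 TPM, and the ferritin gene Fer2LCH with 5.13 TPM. The fascin gene sn had 1.26 TPM. The levels of the list thus run from Pvr down to NimC1 with members throughout the range.

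Of 9 matched crystal cell genes 6 were expressed. The prophenoloxidase gene PPO2 had 6.40, 6.21 and 6.24 TPM, while lz, the factor that defines the lineage, had 9 reads over the 3 libraries. The zinc finger gene peb had 0.507 TPM. The highest of the list, Prx2, had 730, 719 and 731 TPM and encodes a peroxiredoxin that many cells use. Naprt, CG10469 and fok had 35.6, 13.0 and 7.39 TPM, while klu had 50 reads and CG17109 had 13. Of 8 matched lamellocyte genes 6 were expressed. PPO3, the prophenoloxidase of lamellocytes, had 62.4, 60.1 and 58.3 TPM. The lamellocyte surface gene atilla had 2 reads. The kinase gene msn, the filamin gene cher and the integrin gene mys had 233, 126 and 64.8 TPM, and ItgaPS4, an integrin alpha chain of lamellocytes, had 8.34 TPM. Of 9 matched progenitor genes 5 were expressed, not all of them named here. Tep4, which encodes a thioester protein, had 88.3, 86.3 and 82.4 TPM and dome, the cytokine receptor, 49.0, 50.5 and 52.1 TPM. The gene kn, a factor of the lymph gland niche, had 3 reads. The mean TPM of PPO3 was above that of PPO2, and the factors lz, gcm and kn were all within 9 reads of 0. The crystal cell marker PPO1 was not among the 9 matched genes, so no level is given for it.

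**Figure D2:**
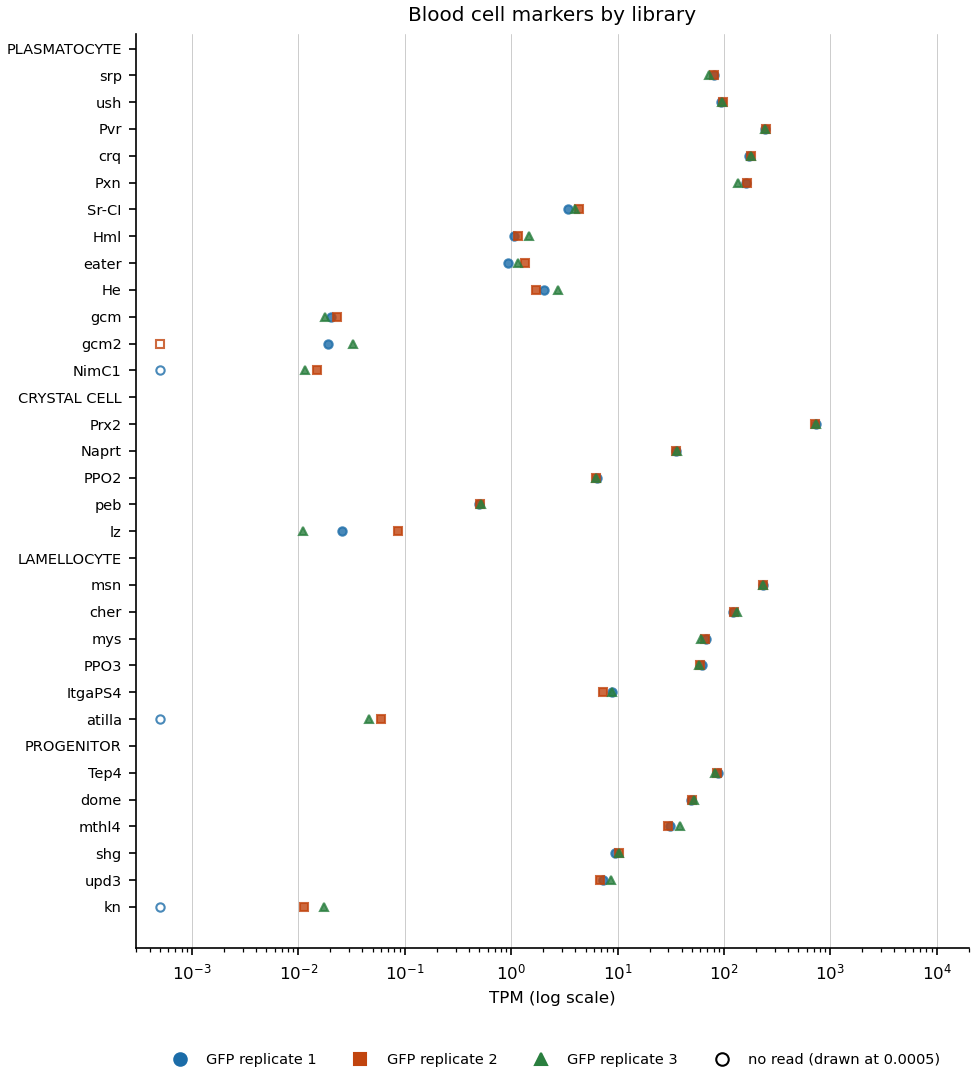
TPM of blood cell marker genes on a log scale, 1 symbol per library, with libraries of no read drawn open at 0.0005. The 3 libraries lie together for expressed genes such as Pvr and PPO3, while NimC1, atilla, gcm, lz and kn lie at or below 0.1 TPM.

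Transcription factors of other programmes were read next. Of 18 GATA, Runx and other haemocyte factors 10 were expressed. The GATA gene pnr, known for dorsal closure and the heart, was the highest with 189, 190 and 195 TPM, above srp in every library. Stat92E had 148, 160 and 157 TPM and Rel, the NF-kappaB factor of the Imd pathway, had 130, 131 and 130 TPM. GATAd and GATAe had 42.1 and 7.63 TPM, grn had 2 reads and RunxB none.

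None of 11 genes of the Hox complexes and none of 17 segmentation factors reached the level. Of the Hox complexes, pb, Scr, zen, ftz and bcd had no read, and Dfd, Antp, lab, abd-A and Abd-B had 1 to 5 reads each. Ubx itself, the protein that the study supplied to other cells, had 14, 8 and 89 reads, with most in the third library. The source of those reads was not tested. The Hox cofactor gene exd was well expressed, with 113, 122 and 132 TPM, and so was tsh, a zinc finger partner, with 81.3, 81.9 and 84.4 TPM. The other homeodomain cofactor, hth, had 8, 7 and 3 reads, so exd was expressed with almost no RNA of hth, the partner that brings its protein into the nucleus. Among segmentation genes gt was highest with 87 reads, en had 1 and Kr none.

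Lists of other tissues ranged from 1 of 9 members expressed to 11 of 14. Of the fat body list 5 of 15 were expressed, but the storage proteins and the yolk proteins were not. Lsp2 and Fbp2 had no read, Lsp1alpha and Fbp1 had 1 read each, and Yp1, Yp2 and Yp3 had 10, 27 and 65 reads. The expressed members were Lpin and Mtp, both of general lipid handling, with 32.0 and 24.4 TPM, the lipid transfer gene Apoltp with 12.9 TPM, the peptide gene Gbp1 with 6.74 TPM and the lipophorin gene apolpp with 0.761 TPM. Of 18 muscle genes 6 were expressed, led by Tm1, a tropomyosin gene with forms outside muscle, at 101 TPM and the RNA-binding gene how at 54.4 TPM. The myosin light chain gene Mlc2 had 1.78 TPM, Mlp84B 1.07 TPM and the titin-like gene sls 0.604 TPM. The muscle factor Mef2 had 15.9, 16.9 and 15.7 TPM, while the myosin heavy chain gene Mhc had 7 reads and twi had 3. The 4 actins of muscle, Act57B, Act87E, Act88F and Act79B, had 30, 11, 4 and 3 reads.

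Among 14 neuronal genes 3 were expressed. Syx1A, a syntaxin used widely in secretion, had 59.7 TPM. The pan-neuronal RNA-binding gene elav had 5.93, 7.39 and 7.56 TPM, and Appl had 1.72 TPM. Synaptic genes stayed low, with 91 reads for brp, 56 for Syt1, 55 for nSyb, 28 for ChAT and 2 for VGlut. Of 10 glial genes 5 were expressed. The receptor gene moody, known from the blood-brain barrier, had 93.5, 93.0 and 98.4 TPM, whereas the glial factor repo had 20 reads. The other expressed members were loco, Indy and nrv2, with 63.8, 54.1 and 49.1 TPM, and the glutamine synthetase gene Gs2 with 3.33 TPM. The gene wrapper had 121 reads and missed the level.

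Of 14 epithelial and septate junction genes 11 were expressed, led by cora with 131 TPM and the claudin gene kune with 66.0 TPM. The E-cadherin gene shg had 9.53, 10.4 and 10.3 TPM and the polarity gene crb 20.6, 20.2 and 22.3 TPM. Nrx-IV, dlg1, sinu and baz had 29.95, 14.3, 9.78 and 9.24 TPM, and sdt, Nrg and Gli had 4.05, 3.79 and 1.92 TPM. The epidermal factor grh had 71 reads and Fas3 had 113, and neither reached the level. The tracheal list had 7 entries, of which 5 were matched. Of these 2 were expressed, obst-A with 1.14 TPM and trh with 0.528 TPM, and none at 2 CPM, while Gasp had 1 read. Of 11 gut genes 2 were expressed, Myo31DF with 81.5 TPM and the factor GATAe with 7.63 TPM, while nub had 14 reads and both amylase genes had 3. Of 9 genes of the Malpighian tubules and nephrocytes 1 was expressed, Cubn with 23.0 TPM.

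Of 14 germline entries 12 were matched, and no level is given here for the marker vas. Of the 12 matched genes 8 were expressed, and 4 of them at 2 CPM in each library. The other 4 had reads but missed the level, and not all of these are named here. The Piwi-class gene aub had 158, 160 and 159 TPM, a spread of 1.02 TPM (SD, n = 3), whereas piwi had 19, 22 and 25 reads. The third member of the class, AGO3, had 0.802 TPM. The oocyte gene osk had 1.75 TPM, with only part of its exons free of other genes, and the germ cell gene bam had 1.93 TPM. Further expressed members were gcl, ovo, tej and zpg, with 25.6, 4.01, 2.10 and 1.78 TPM. Of 20 matched factors of the piRNA pathway, which silences transposons in gonads, 17 were expressed, among them krimp with 141 TPM, vret with 47.3 TPM, rhi with 22.0 TPM and del with 19.8 TPM. The gene armi had 114 TPM with hardly any exon base of its own in the annotation. All 6 matched siRNA genes and all 10 miRNA genes were expressed, with 298 TPM for AGO2, 54.4 TPM for AGO1, 53.8 TPM for Dcr-2 and 28.2 TPM for Dcr-1.

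Of 23 EGF receptor pathway genes 21 were expressed, and the receptor gene Egfr was not. It had 5, 2 and 6 reads. The ligand gene spi had 442, 448 and 460 TPM, grk had 72.3 TPM and Krn 7.39 TPM. The feedback inhibitor gene sty, which acts on several receptor tyrosine kinases, was the highest of the list with 499, 557 and 592 TPM. The secreted inhibitor aos had 12.3, 12.8 and 17.8 TPM. The shared kinase genes Dsor1 and rl had 36.9 and 22.4 TPM, and the nuclear effectors pnt and aop had 190 and 172 TPM.

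Of the receptor genes named here from the list of FGF, PDGF/VEGF and insulin signalling, Pvr alone was expressed. Neither the insulin receptor gene nor the FGF receptor gene btl is among those named, so Pvr need not be the only one expressed. Of the 29 entries of the list 3 found no match. Among its ligands Pvf2 had 128, 131 and 157 TPM, Pvf3 had 3.83 TPM and Pvf1 had 19 reads. The kinase receptor genes htl, tor, Alk and Ret had 16, 16, 31 and 13 reads. The FGF-type ligand gene bnl had 26.7 TPM, and Ilp6 was the sole expressed gene among the insulin-like genes matched here, with 31.2 TPM. In that list of 26 genes 11 were expressed.

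Of 13 Hedgehog pathway genes 11 were expressed. The receptor gene ptc had 56.2, 58.6 and 56.3 TPM and smo, the transducer, 27.2, 28.3 and 29.2 TPM. The ligand gene hh had 12, 13 and 20 reads, and ci, the pathway's transcription factor, had 25, 12 and 20 reads. The inner parts Su(fu), cos and fu had 106, 72.04 and 35.5 TPM.

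Of 26 Wingless pathway genes 21 were expressed. The co-receptor gene arr had 19.1 TPM, and of the receptor genes fz4 had 10.4 TPM, fz 4.63 TPM, fz2 2.39 TPM and fz3 0.881 TPM. Wnt5 was the one ligand of those matched here that reached the level, with 25.0 TPM, and wntD had no read. The beta-catenin gene arm had 737, 707 and 684 TPM.

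Of 24 Notch pathway genes 14 were expressed. The receptor gene N had 42.6, 46.2 and 44.5 TPM, and the ligand gene Ser had 107 reads. Among targets of the E(spl) complex, E(spl)mbeta-HLH had 63.2 TPM and E(spl)m3-HLH 17.3 TPM, and E(spl)m5-HLH, E(spl)m8-HLH and E(spl)m4-BFM had no read.

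In the BMP and activin branch 17 of 23 genes were expressed. The ligand gene gbb had 179, 160 and 154 TPM, while dpp had 38 reads and scw had 1. The activin-type ligand genes myo and mav had 72.8 and 41.7 TPM. Type I receptors sax, tkv and babo had 113, 12.8 and 88.0 TPM and the type II receptor put had 70.5 TPM, with wit at 69 reads.

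All 13 JAK-STAT genes were expressed. The cytokine genes upd1, upd2 and upd3 had 2.20, 5.86 and 7.58 TPM, and the feedback gene Socs36E had 75.7, 75.2 and 94.3 TPM. Each of the 4 was highest in the third library. In the TNF branch the ligand gene egr had 307, 315 and 283 TPM, the receptor gene wgn 29.2 TPM, and the receptor gene grnd 4 reads. Among death genes, the caspase inhibitor Diap1 had 196 TPM, while rpr had 27.3 TPM, hid 1.97 TPM and grim no read. Of 14 Hippo pathway genes 12 were expressed, with yki at 190 TPM, and the atypical cadherin ft had 25 reads.

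**Figure D3:**
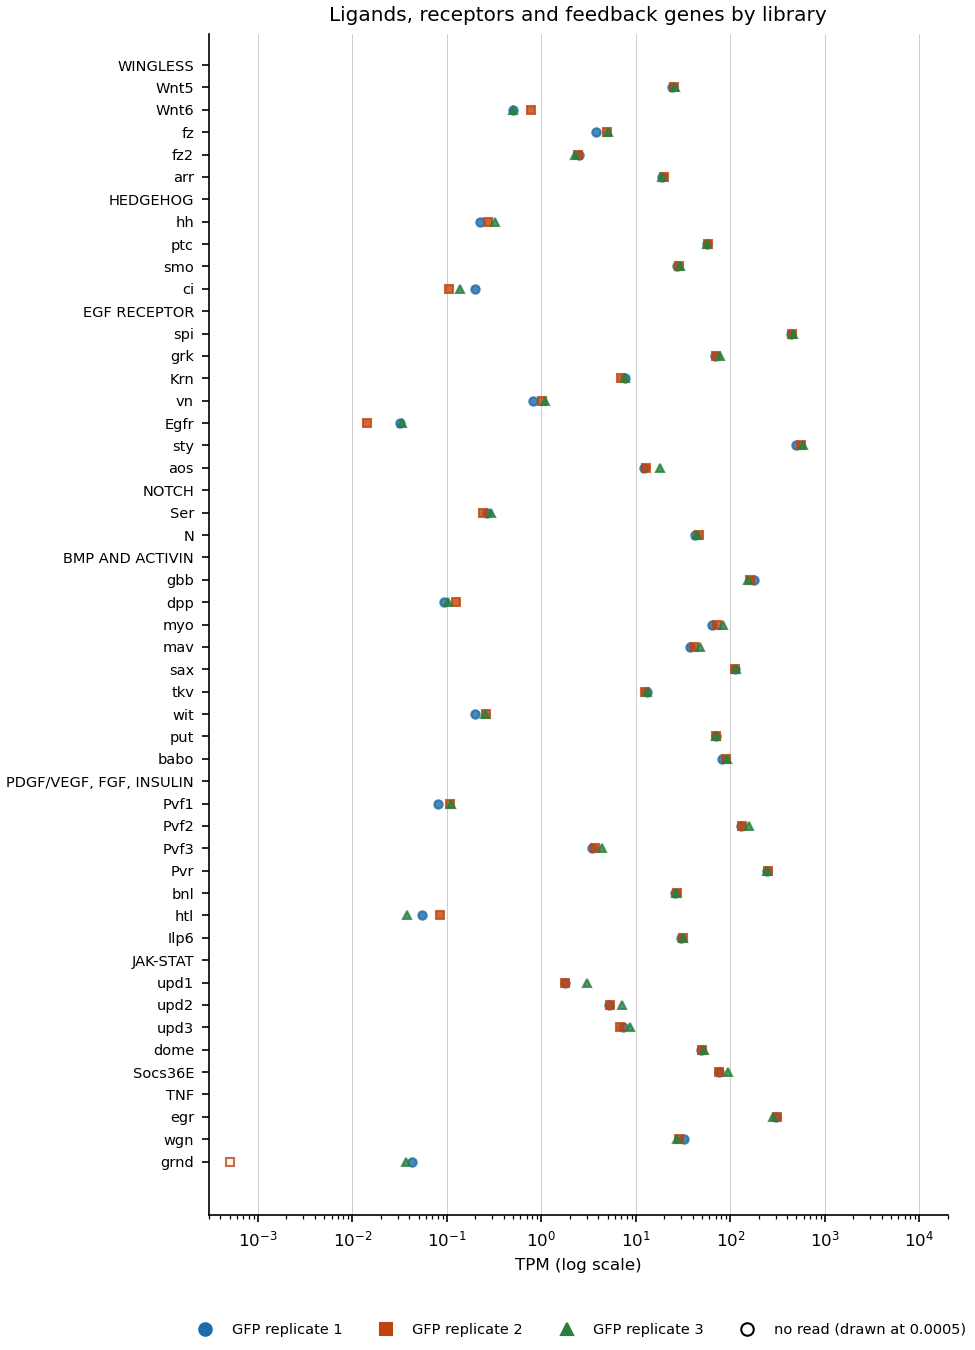
TPM of ligand, receptor and feedback genes by library on a log scale, grouped by pathway, with a library of no read drawn open at 0.0005. Egfr, hh, ci, dpp, htl and grnd lie below 1 TPM beside pathway partners such as spi at 450 TPM, ptc at 57.0 TPM, sax at 113 TPM and egr at 301 TPM.

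Of 23 Imd pathway genes 18 were expressed, with 73.4, 69.1 and 66.6 TPM for imd and 321 TPM for key, the regulatory subunit of the kinase complex. The surface receptor gene PGRP-LC had 53, 41 and 62 reads, a mean of 0.603 TPM, which lies just above the level on the CPM scale. Of 25 Toll pathway genes 14 were expressed, among them Tl with 30.5 TPM, its ligand spz with 85.8 TPM, and the inhibitor cact with 47.0 TPM. The processing protease gene SPE had 2 reads. Of 20 antimicrobial peptide genes 5 were expressed at 1 CPM and 1 at 2 CPM. The highest was CecC with 98, 127 and 149 reads and 14.1 ± 2.61 TPM (SD, n = 3). CecA1, Anp, CecB and AttD had 12.9, 8.92, 7.91 and 3.24 TPM. DptA had 22 reads, AttA 9, Def 1 and Dro 2. Of 32 genes of phagocytosis and scavenging 17 were expressed, among them pes with 111 TPM, NimC4 with 59.2 TPM and drpr with 18.7 TPM. Of 12 melanisation genes 8 were expressed, led by yellow-f with 220 TPM and the protease Sp7 with 123 TPM. Ddc and ple, enzymes of dopamine synthesis, had 12 and 10 reads.

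Matrix and adhesion genes included some of the higher levels. SPARC, a collagen-binding protein of basement membranes, had 3083, 2965 and 2472 TPM, lowest in the third library. The laminin genes LanA, LanB2 and LanB1 had 714, 196 and 180 TPM, so the alpha chain exceeded both partner chains on the TPM scale. The collagen IV genes Col4a1 and vkg had 29.4 and 13.3 TPM, and Timp had 40 reads. Of 19 basement membrane and secreted matrix genes 17 were expressed. All 15 integrin and adhesion complex genes were expressed, with Ilk at 193 TPM and mys at 64.8 TPM. Among the alpha chains, if and mew had 12.3 and 10.2 TPM. In the cadherin list of 27 genes 15 were expressed, led by Cals at 93.5 TPM and kug at 58.1 TPM, while the neural cadherin CadN had 30 reads. Ephrin and its receptor gene Eph, both on chromosome 4, had 81.5 and 79.1 TPM, both highest in the third library. Of 18 axon guidance genes 13 were expressed.

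Of 6 actin genes, Act42A and Act5C were expressed, with Act5C at 2126, 1928 and 1745 TPM. The cofilin gene tsr had 4851, 4838 and 4923 TPM. Of 8 matched tubulin genes 5 were expressed, with alphaTub84B at 3722 TPM and the testis tubulin betaTub85D at 27 reads. All but 1 of 30 actin assembly and myosin genes were expressed, the exception being the flight muscle gene fln.

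The highest genes were those of translation and mitochondria. The 100 genes of most reads held 26.0%, 25.9% and 25.9% of each library, and 1000 genes held 64.6% to 64.7%. Of the 100 highest by TPM, 70 encode cytosolic ribosomal proteins, 7 lie on the mitochondrial genome and 4 are translation factors. Of the genes with a TPM, the mitochondrial large ribosomal RNA mt:lrRNA came first, with 14857, 24359 and 26444 TPM. RpL23, RpS3 and RpL10 followed with 10931, 9602 and 8643 TPM, then RpL21, RpL8, RpL23A, RpS23 and RpL41, none below the 6594 TPM of RpL41. By reads, a different gene led the first library, with 1.23% of its reads beside 0.996% for mt:lrRNA. That gene is not among those just listed. The 306 identifiers without a TPM, with 4.83% to 4.98% of reads, could not enter the ranking by TPM.

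Of 89 genes named as cytosolic ribosomal proteins 82 were expressed, and all 31 aminoacyl-tRNA synthetases and 70 of 71 mitochondrial ribosomal proteins were. In some pairs of related genes, 1 gene carried nearly all of the RNA. RpL22 had 1537 TPM and the related RpL22-like no read. RpL10Ab had 4159 TPM and RpL10Aa no read, and RpS5a had 3881 TPM beside 5.23 TPM for RpS5b. The RpS14 pair was shared, with 1297 TPM for RpS14b and 2010 TPM for RpS14a. These pairs were chosen after their values were seen. Levels of near-identical copies are uncertain, since reads not uniquely aligned were set apart in the deposited counts. In the same way, 33 of 48 proteasome genes were expressed, and all of the other 15 but Prosalpha1 carry the letter R or T after the subunit's name. Prosbeta2R2 was the highest of the 15, with 73 reads, and Prosalpha4T2 had 1. Prosalpha1 had no read although 98.2% of its exon bases are its own. Whether reads of this gene were among those not uniquely aligned was not tested.

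Genes of growth and division were expressed nearly throughout. All 34 cell cycle and replication genes were expressed, with PCNA at 824, 792 and 726 TPM and CycB at 415 TPM. All 19 nucleolar genes, all 22 core spliceosome genes and all 22 Polycomb and trithorax genes were expressed, as were all 20 translation factors, 26 of 27 genes of RNA polymerase II and elongation, and 22 of 26 SR proteins and hnRNPs. Of 111 replication-dependent histone genes, whose messages carry no poly(A) tail and whose copies are nearly alike, none was expressed and 104 had no read, whereas His2Av, a variant outside the repeat cluster, had 1409 ± 87.7 TPM (SD, n = 3). Of 10 dosage compensation genes 9 were expressed. The roX2 RNA, which carries the compensating complex to the X chromosome, had 35.7, 43.3 and 50.6 TPM and roX1 had 7 reads. The protein gene msl-2 had 29.5 TPM, and Sxl had 2.73 TPM.

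Metabolic and stress genes were mostly expressed, though 13 of 26 heat shock genes were not. All 14 citric acid cycle genes and 13 of 15 glycolysis genes were expressed, with Gapdh1 at 836 TPM, PyK at 645 TPM and Ldh at 39.8, 31.5 and 33.1 TPM. The lipid regulator SREBP had 917, 901 and 940 TPM. All 14 genes of the endoplasmic reticulum and unfolded protein response were expressed, led by Calr at 2515 TPM, with Xbp1 at 1046 TPM. The constitutive chaperones Hsc70-4 and Hsp83 had 2384 and 2242 TPM. Hsp70Bb had 318, 346 and 448 TPM, and its near-identical copies Hsp70Ba and Hsp70Bc had 44 and 70 reads. The level of each copy is uncertain, since reads not uniquely aligned were set apart. The ecdysone receptor partner usp had 83.3 TPM and EcR 13.8 TPM, in a list of 12 of which 10 were expressed.

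Large families of specialised tissues had few expressed members. Of 59 odorant receptors 4 were expressed, the highest being Or43b with 8.73, 8.44 and 9.81 TPM, followed by Or67b, Or82a and Or85f at 6.59, 3.87 and 2.21 TPM. Of 60 gustatory receptors 5 were, with Gr58c at 8.84 TPM and Gr61a at 8.70 TPM ahead of Gr94a, Gr47b and Gr43a. Of 66 ionotropic receptors 4 were, among them Ir76a with 29.4, 29.8 and 29.1 TPM. Of 51 odorant-binding proteins 2 were, Obp18a with 20.03 TPM and Obp19d with 2.08 TPM. Of 70 Cpr cuticle proteins 3 were, with Cpr50Cb at 8.51 TPM, and of 22 Osiris proteins only Osi19 was, at 13.0 TPM. No member of the chorion, seminal fluid, Jonah, trypsin, rhodopsin, beat and side families reached the level.

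Detoxification and membrane families lay in between. Of 84 cytochromes P450 21 were expressed, led by Cyp310a1 with 161, 163 and 157 TPM and Cyp6d4 with 76.8 TPM. Of 35 glutathione S-transferases 23 were, led by GstE6 with 568 TPM and GstE3 with 250 TPM. Of 35 UDP-glycosyltransferases 6 were, with Ugt316A1 at 84.2 TPM. Of 34 tetraspanins 13 were, with Tsp42Ee at 614 TPM, and of 7 innexins, the gap junction proteins, 5 were, with Inx2 at 26.3 TPM.

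**Figure D4:**
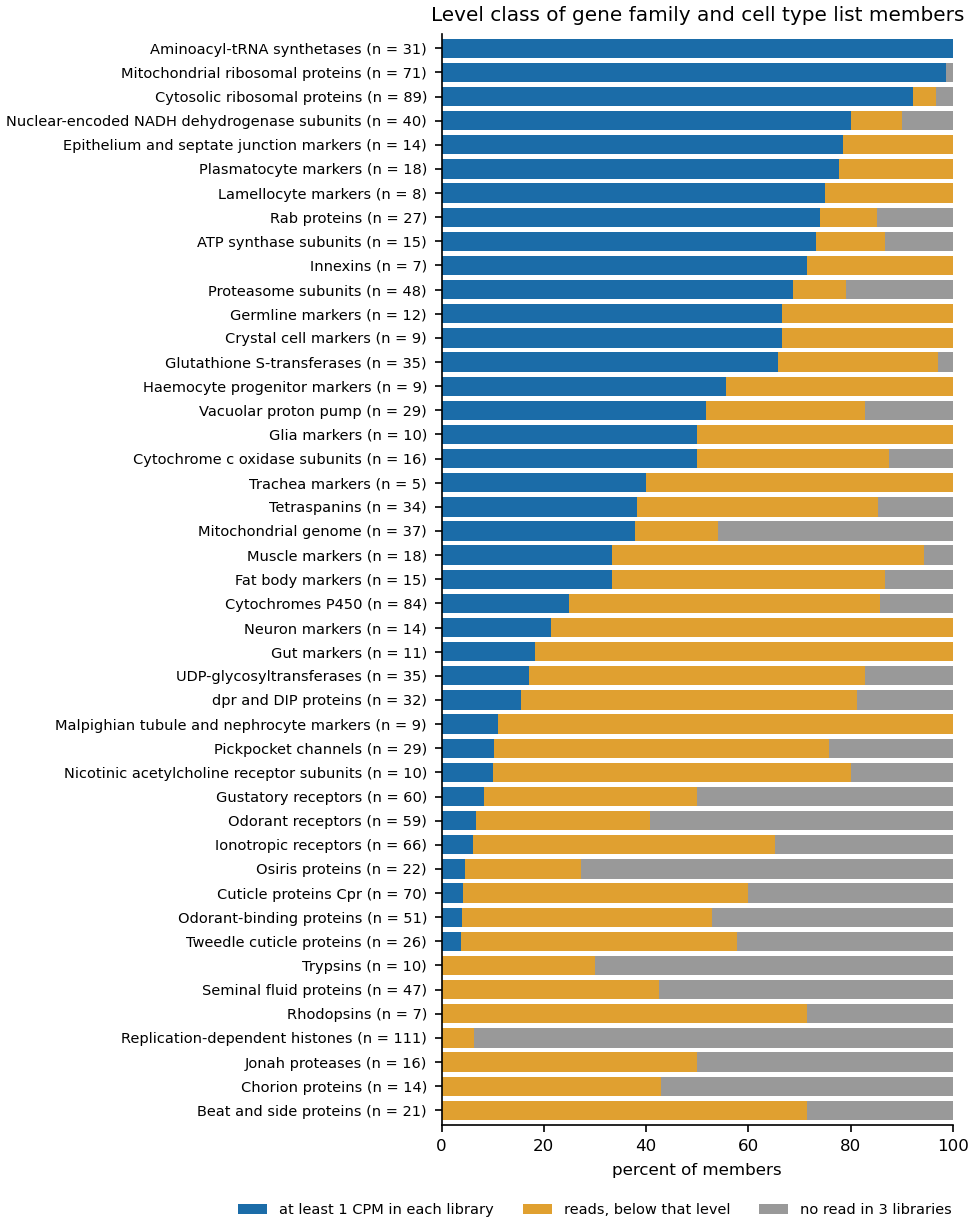
Percent of members in each level class for cell type lists and protein families, sorted by the share expressed, with the number of members in brackets. Translation families stand at the top, blood, epithelial and germline lists in the upper part, and chemosensory, cuticle and egg shell families at the bottom.

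The 3 libraries were close to each other. The Pearson correlations of log2 CPM across expressed genes were 0.9971 to 0.9984, which describes genes within this line and not independent replicates. The median coefficient of variation (CV) of expressed genes was 3.98%, and 123 of 7389 differed at least 1.5-fold between their highest and lowest library. The common biological coefficient of variation, the spread beyond counting error, was 5.07%. For each pair of libraries the chi-square over genes was 7.98 to 38.3 per degree of freedom, which shows only that no library is a second copy of another.

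The genes of the mitochondrial genome varied most, and together. They held 1.92%, 3.06% and 3.43% of reads. All 14 expressed ones were lowest in the first library and highest in the third, by at least 1.5-fold. The highest CV was that of mt:ND2 with 7.45, 25.0 and 38.9 CPM, followed by mt:ND4L and mt:ND6. Without these genes the common biological coefficient of variation was 4.57%. Outside the genes annotated on the mitochondrial genome, FBgn0015541, an identifier without a match, had 43.8, 27.8 and 16.1 CPM, the reverse order, and CG4793 had 54.2, 62.6 and 102 CPM. Of the 123 genes, 87 were highest in the third library, or 73 of 109 without those of the mitochondrial genome. The third library also had the most reads outside genes, at 2.003%, beside 1.496% and 1.721% in the others. The part of either fact in the spread was not tested.

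**Figure D5:**
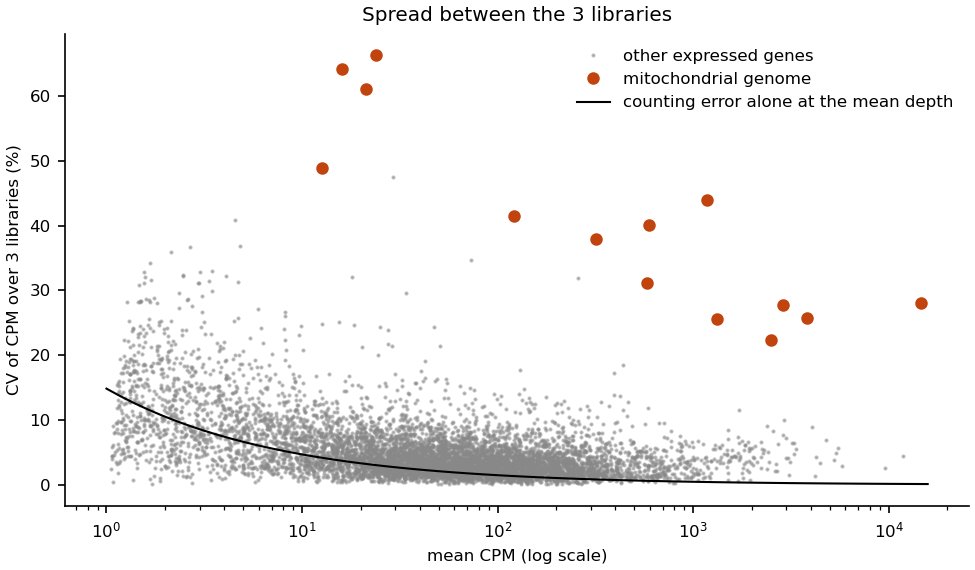
Coefficient of variation of CPM over the 3 libraries against mean CPM on a log scale for 7389 expressed genes, with the counting error expected at the mean depth as a line. The 14 genes of the mitochondrial genome lie above nearly all other genes of like level, with mt:ND2 at 66.3%.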

How the data were processed

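The files deposited by the authors hold raw counts for 17559 FlyBase gene rows and 5 summary rows in each library. The submitters' processing notes name Trimmomatic 0.36, STAR and HTSeq, and the builds dm6 and BDGP6. The strand setting and the annotation behind the counts were not given in the sources used here. Summary rows stayed out of all totals. Symbols, positions and lengths were read from Ensembl 115 (BDGP6.54, the assembly of dm6), which matched 17253 identifiers. CPM and TPM were computed from the counts with pandas 2.3.3. TPM covers genes with a length. The common dispersion came from edgeR 4.0.16 with an intercept only and TMM scaling, over 8521 genes kept by filterByExpr. That estimate was tested on simulated counts. It was recovered where all genes had 1 spread and came out too high where a minority of genes varied far more. The simulated minority was larger than the set of mitochondrial genes. The value without the mitochondrial genome is therefore given as a description and not as a corrected estimate.

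No test between groups was made. Members, the 59 gene lists and the 39 name patterns were chosen with earlier results of these data known. The chorion, P450 and Rab patterns were corrected after the data were seen, since they took in genes of other families. Of the list entries, 65 found no match, and 27 matched through a synonym. The text names some, not all, of the genes that the rule for names admits: the 4 highest or 3 lowest of a list, all members of lists of at most 20 entries, the highest and most variable genes, expressed members of small families, and the ligands, receptors and feedback genes of pathways. Other names in the text, such as RpL22, Polr2D, Orc3 and CycB, were chosen after their values were seen. No promoter sequence was used here, so the planned motif count was not run.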

Additional observations from a re-analysis of the deposited data

How the results depend on the processing

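No paired analysis was possible because no result comes from a test between groups. The number of expressed genes ran from 6975 at 2 CPM to 7874 at 0.5 CPM, and from 7406 to 7453 without 1 library. It was 7506 at 1 TPM and 7378 with DESeq2 size factors (DESeq2 1.42.0). Genes not detected numbered 4672 to 4938 without 1 library, 6336 when up to 3 reads were allowed, and 2397 among protein-coding genes alone, a limit chosen after the data were seen. The 100 highest genes held 25.95% of reads on average, 24.75% without the mitochondrial genome, 25.78% over genes with a symbol (chosen after the data were seen), and 25.92% to 25.98% without 1 library. The common biological coefficient of variation was 4.98% to 5.09% under other filters and scalings. It was 3.99% to 6.80% without 1 library, highest when replicate 2 was left out. Of the 889 distinct list members, 639 were expressed, against 612 at 2 CPM and 661 at 0.5 CPM. Of 98 lists and families, 20 had a count that moved by over 1.5 times under some setting, among them gustatory receptors with 2 and innexins with 3 at 2 CPM, Cpr proteins with 5 at 0.5 CPM, and long noncoding RNAs with 81 at 2 CPM and 196 at 1 TPM. Segmentation factors and Jonah proteases had 1 member at 0.5 CPM. With the length of the longest transcript the level of srp was 97.5 TPM in place of 77.7 TPM. At this depth a gene of 1 CPM has 40.0 to 51.6 reads, so levels of genes with few reads carry wide counting error.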

Other observations

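The longest runs of neighbouring protein-coding genes of 1 kind are given as a description, with no length set by chance. Coordinates are those of dm6. Apart from the histone repeat, the longest run of neighbouring protein-coding genes below the level lay on chromosome 3L from l(3)72Dr to CG33257 (16237723 to 16347620), with 45 genes and 200 reads in all. A run of 34 genes on chromosome 3R, from CG10280 to Osi18 (6010573 to 6331809), holds much of the Osiris family and 137 reads. The longest run of expressed genes, 42 from CG34269 to CG34057, lay on chromosome 3L (528337 to 898772). It includes Gr61a, 1 of the 5 expressed gustatory receptors. On chromosome 4, 66 of 79 protein-coding genes were expressed, against 5723 of 11437 on the large autosome arms and 1227 of 2131 on the X. Of 20 on the Y none was. No test was made of these shares.

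Of 1797 genes named as long noncoding RNAs 125 were expressed. The highest by TPM was lncRNA:CR40469, with 200.4, 221 and 353 CPM, highest in the third library. At 1 CPM, 1 of 295 transfer RNA genes, 7 of 258 small nucleolar RNA genes and 4 of 31 small nuclear RNA genes were expressed. These genes are short, and at 1 TPM the counts were 14, 111 and 11. The microRNA hairpin gene mir-2490 had 571, 673 and 666 TPM, which counts reads of that stretch of poly(A) RNA and not the mature microRNA.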
